A study of Arabidopsis thaliana with 8 samples.

Results

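The base of the wild type inflorescence stem of Arabidopsis thaliana was compared with its tip across all genes of the ATH1 array, a microarray that carries a set of short probes for each of most genes of this plant. The comparison rests on 4 of the 8 arrays of a study titled for the role of COV in vascular patterning, chosen by their labels: 2 arrays of the stem base and 2 of the stem tip. These plants were of the accession Ler-0 (stock NW20), at growth stage 6.10, and grew on compost with Intercept insecticide and no added nutrients at 22 degrees, 65% humidity and 24 hours of light. The other 4 arrays came from the base and the tip of cov stems under the same labelled conditions; they share in the estimate of the spread between arrays, and the gradient in wild type is set against that in cov at the end. Nothing in the labels says that replicate arrays came from separately grown plants, so p-values measure only the spread between these samples, which may be technical.

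An inflorescence stem matures from the top down. Near the tip cells divide and elongate below the shoot meristem and the flower buds, while toward the base elongation has ended and vessels and interfascicular fibres lay down thick secondary walls of cellulose, xylan and lignin. The epidermis exports wax and cutin, and the cortex below it is green. Each array measured the RNA of whole tissue, so fewer cells of a type and less RNA per cell cannot be told apart.

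Base and tip differed widely. Of 15923 tested probe sets, 3510 (22.0%) were higher and 3881 (24.4%) lower at the base, together 46.4%, at an adjusted p under 0.05 by limma. Differences of at least 2-fold were found for 1790 higher and 2140 lower probe sets, of at least 4-fold for 520 and 645, and of at least 16-fold for 48 and 115. The median difference was -0.01 on the log2 scale. Counting 1 probe set for each of 8697 named genes, 1815 (20.9%) were higher and 1991 (22.9%) lower. The counts of each gene list below are to be read against these shares. Lists and members were chosen with earlier results of these data known, so the direction of a list is not independent evidence.

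The 2 base arrays correlated at r = 0.966 and the 2 tip arrays at r = 0.963 across the tested probe sets, while a base and a tip array correlated at 0.664 to 0.677. Probe sets are not independent replicates. Median signals were 41.4 and 46.4 at the base, against 48.2 and 49.2 at the tip. The log2 excess of 3′ over 5′ actin signal, a sign of RNA quality, was 0.55 and 0.25 at the base, against 0.69 and 0.19 at the tip; its part in the differences was not tested. Signals are in the authors' MAS5 units, and fold changes were computed on signal plus 11.85, which understates the change of dim genes. A gene that was dim in 1 part of the stem passed the filter on dim signal through the other.

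**Figure D1:**
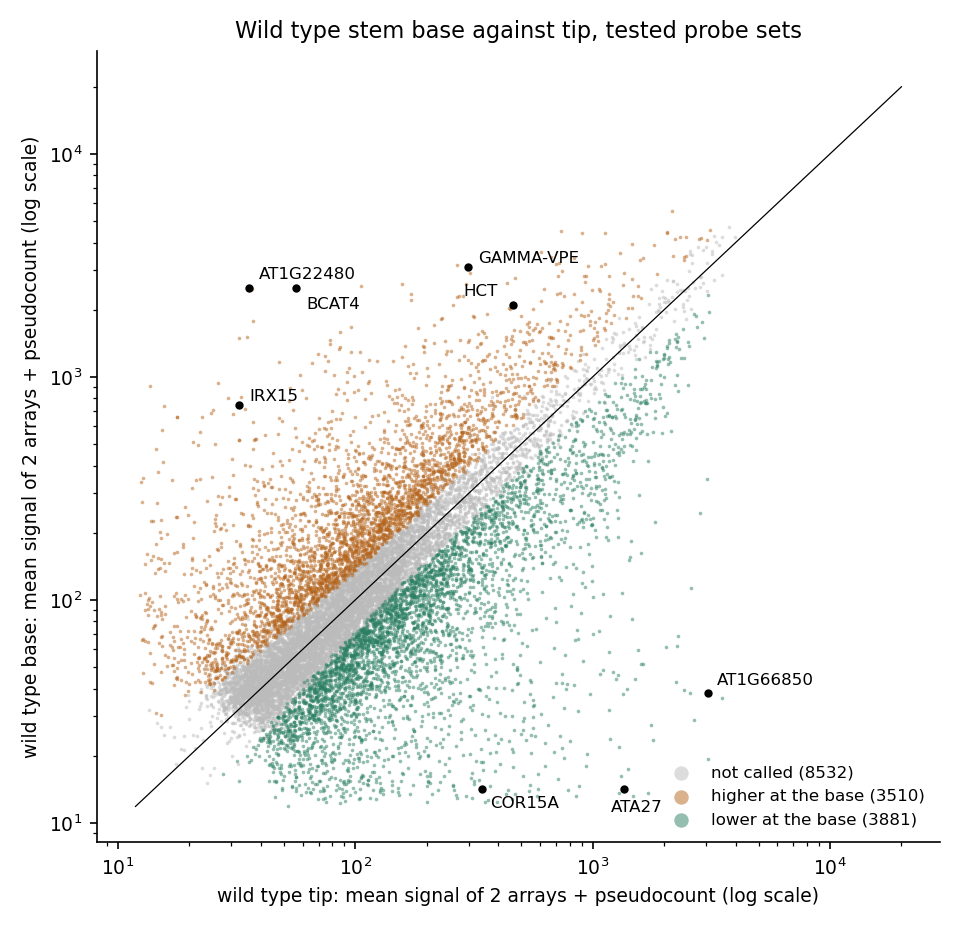
Mean signal of the 2 wild type base arrays (vertical axis) against that of the 2 wild type tip arrays (horizontal axis) for each of 15923 tested probe sets, on log scales. Brown points were higher at the base (3510), green points lower (3881) and grey points not called; AT1G22480 and BCAT4 lie far above the diagonal, and ATA27 far below it.

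The largest differences toward the base belonged to a glucosinolate gene, a xylan gene, a microtubule gene and several loci without a name in RefSeq. AT1G22480, an unnamed locus of the secondary wall list described below, had signals of 2669 and 2332 at the base, against 26.6 and 20.7 at the tip. It was 70.9-fold higher at the base (95% limits 52.6 to 95.5), with an adjusted p of 1.2e-08 by limma on 2 arrays per group. BCAT4, an aminotransferase that acts early in making glucosinolates from methionine, read 2652 and 2346 at the base, against 37.7 and 51 at the tip. Both genes were bright at the base, while their tip signals lay below or close to the median signal of the array. BCAT4 was 44.9-fold higher at the base (95% limits 35.2 to 57.3, adjusted p = 1.02e-08).

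AT1G64360 gave 1096 and 708 at the base, against 1.5 and 2 at the tip, a log2 difference of 6.04 ± 0.28 (SE, adjusted p = 8.79e-08). AT1G80170 gave 1468 and 1520 at the base, against 30.7 and 15.6 at the tip, a log2 difference of 5.46 ± 0.23 (adjusted p = 5.29e-08). AT3G23090, which RefSeq also lists as WDL3, a gene of a microtubule-associated protein family, gave 789.5 and 514 at the base, against 10 and 1.7 at the tip (5.24 ± 0.26, adjusted p = 1.4e-07). Values in brackets with ± are log2 differences, base minus tip, with their SE, here and below. In all of these genes the base arrays lay far above the tip arrays, and the tip signals of AT1G64360 and AT3G23090 were at the low end of the scale.

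The 15 largest also held IRX15, described with the secondary wall, and PME61, a pectin methylesterase gene with signals of 1537 and 1373 at the base, against 68.2 and 64.6 at the tip. CYP71B23, a cytochrome P450 gene, had 346 and 317 at the base, against 6.3 and 3.9 at the tip. The unnamed loci AT3G48640, AT2G31930, AT4G28380 and AT1G10340 had log2 differences of 4.99 ± 0.44, 4.75 ± 0.30, 4.74 ± 0.19 and 4.65 ± 0.31. Those of AT4G09760, AT5G52760 and AT3G60420 were 4.49 ± 0.27, 4.45 ± 0.36 and 4.22 ± 0.25. Both base arrays lay above both tip arrays for each of the 15, as their choice by size makes likely; among all tested probe sets that held for 34.1%, and both base arrays lay below both tip arrays for 36.3%.

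**Figure D2:**
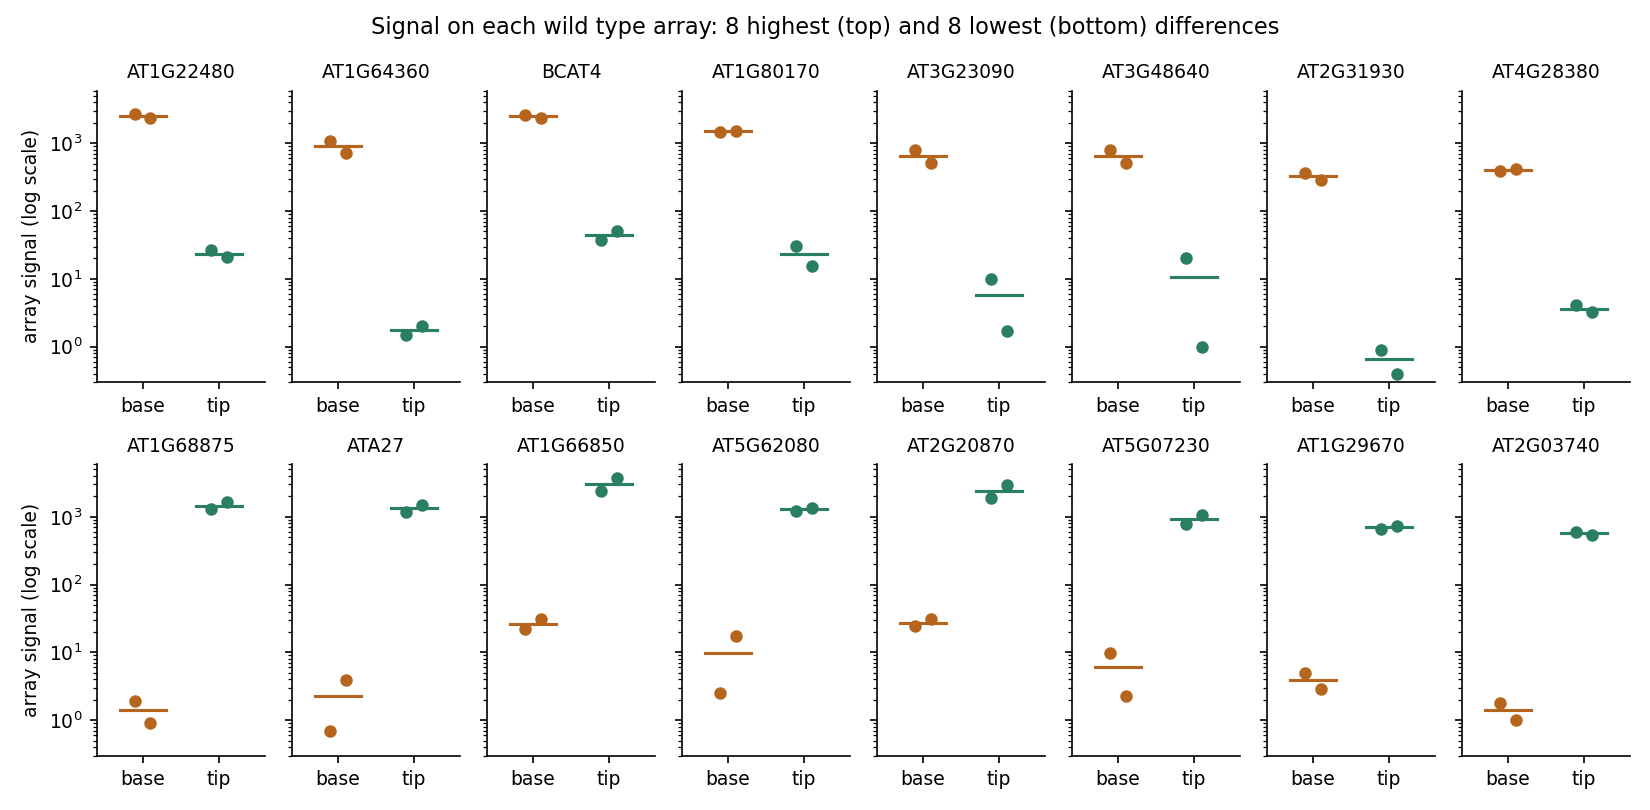
Signal on each wild type array (log scale) for genes with the highest and the lowest log2 differences, base left and tip right in each panel. Points are arrays and bars are means of 2 arrays; base and tip stand apart in every panel, as for AT1G22480 with 2669 and 2332 at the base, against 26.6 and 20.7 at the tip, and for ATA27 with 0.7 and 3.9 at the base, against 1182 and 1501 at the tip.

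Secondary wall genes were mostly higher at the base. Of 27 tested loci known from co-expression with secondary wall synthesis, 22 were higher, 1 was lower and 4 were not called, with a median log2 difference of 2.14 against -0.01 over all named genes. Co-expression lists of this kind were drawn from public ATH1 arrays that may have included these, so the list's direction is not independent evidence. The lower locus was WLIM1, which encodes an actin-binding LIM protein, with 319 and 238 at the base, against 489 and 448 at the tip (-0.74 ± 0.19, adjusted p = 0.00846). It falls outside the rule for named genes and was chosen after its values were seen. Its call was lost without base array 2 (0.0743) or tip array 1 (0.0522), and without tip array 1 the list held 0 lower loci.

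Xylan, the main hemicellulose of secondary walls, was represented by 4 genes of that list, 3 of them higher. IRX15, needed for normal xylan chain length, had 829.5 and 647 at the base, against 20.8 and 19.9 at the tip, and was 23.1-fold higher at the base (95% limits 16.7 to 32, adjusted p = 9.98e-08). Its close relative IRX15-L had 986 and 754 at the base, against 70.2 and 75 at the tip (3.37 ± 0.18, adjusted p = 1.81e-07). GUT2, also known as IRX10 and needed for the xylan backbone, had 1087 and 915 at the base, against 79.2 and 94.4 at the tip (3.36 ± 0.20, adjusted p = 4.63e-07). For all 3 the base arrays lay far above the tip arrays. GUT1, a relative of GUT2, had 199 and 209 at the base, against 217 and 159 at the tip, with overlapping groups (0.12 ± 0.18, adjusted p = 0.62). The unnamed locus AT4G27435, also in the list, had 1752 and 1528 at the base, against 169.7 and 175 at the tip, and was 8.96-fold higher at the base (95% limits 7.12 to 11.3).

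Lignin and phenylpropanoid genes, which supply the phenolic polymer of secondary walls, numbered 8 tested; 6 were higher, 1 lower and 1 not called, with a median of 0.96. HCT, the hydroxycinnamoyl transferase on the route to monolignols, had 1902 and 2295 at the base, against 430.3 and 469.6 at the tip, and was 4.55-fold higher at the base (95% limits 3.6 to 5.75, adjusted p = 1.27e-06). BGLU45, a glucosidase of monolignol glucosides, had 444 and 337 at the base, against 20.7 and 23.9 at the tip (3.55 ± 0.18, adjusted p = 1.58e-07). Base and tip arrays were well apart for both. AT5G51890 went the other way, with 32.9 and 53.9 at the base, against 259 and 209 at the tip (-2.17 ± 0.21, adjusted p = 1.17e-05).

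Other members of the lignin list were dim. AT5G64120, named peroxidase 71 by RefSeq, had 27.2 and 32.5 at the base, against 6.8 and 4 at the tip (1.28 ± 0.22). The peroxidase gene PRX52 (1.02 ± 0.26) and the glucosidase gene BGLU46 (0.90 ± 0.27) were also higher at the base. The call of PRX52 was lost without tip array 1 (adjusted p = 0.0584), and that of BGLU46 without base array 1 (0.143) or tip array 2 (0.11).

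Pectin-modifying genes changed in both directions: 5 were higher, 2 lower and 0 not called of 7 tested, with a median log2 difference of 1.84. Beside PME61, the pectin methylesterase gene PMEPCRF had 569 and 659 at the base, against 139.7 and 67.7 at the tip (2.51 ± 0.25, adjusted p = 1.39e-05). Another of the family, ATPMEPCRB, had 8.6 and 8.7 at the base, against 52.5 and 45.2 at the tip (-1.56 ± 0.21, adjusted p = 0.00011), so relatives differed in direction. AT3G07820 had 1.4 and 1.4 at the base, against 180.1 and 384 at the tip, the largest decrease of the list (-4.38 ± 0.41, adjusted p = 1.04e-05).

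**Figure D3:**
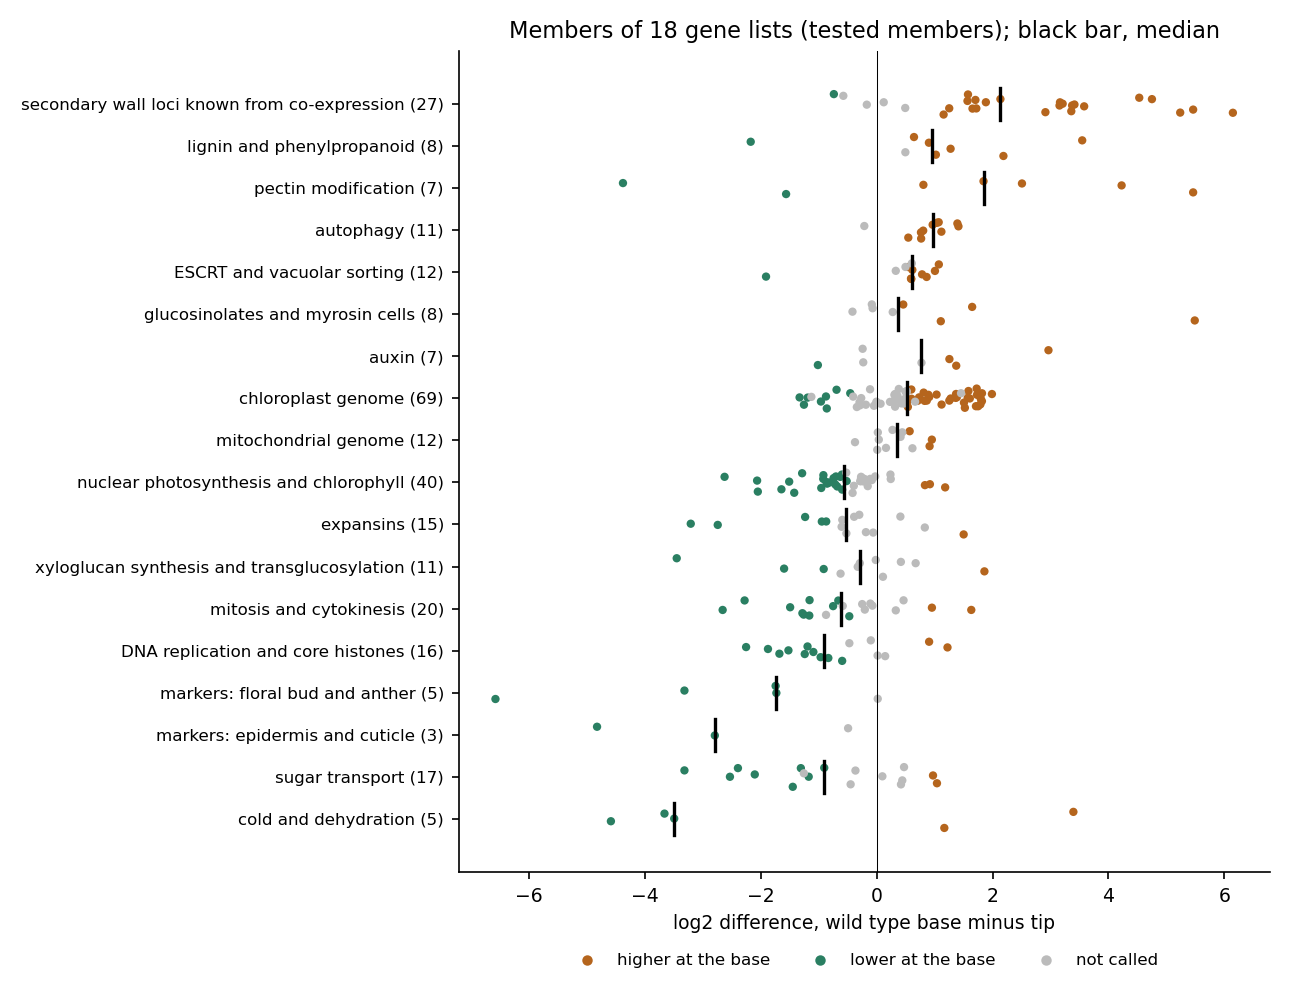
Log2 difference, wild type base minus tip, of each tested member of 18 gene lists, with the number of members in brackets. Brown points were higher at the base, green lower and grey not called, and black bars mark list medians, such as 2.14 for the secondary wall list and -0.90 for DNA replication and core histones.

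Of 6 tested regulators of cambium and procambium, the dividing vascular tissue, 1 was higher, 1 lower (16.7% each) and 4 not called. Among all named genes 20.9% were higher and 22.9% lower. The median log2 difference of the list was 0.04. BRL1, a brassinosteroid receptor of vascular tissue, had 98.5 and 67.4 at the base, against 17.4 and 14.3 at the tip (1.76 ± 0.23, adjusted p = 9.54e-05). LHW, a transcription factor of vascular initials, had 89.8 and 60.9 at the base, against 134 and 145 at the tip (-0.82 ± 0.19, adjusted p = 0.00415). CLE41 and CLE44, which encode the peptide that keeps vascular stem cells dividing, had log2 differences of 0.24 ± 0.16 and 0.18 ± 0.21 (adjusted p = 0.257 and 0.507).

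Of the phloem markers, OPS had 14.2 and 17 at the base, against 37.7 and 31.3 at the tip, and SWEET11, an exporter of sucrose for phloem loading, had 469.8 and 211 at the base, against 200.3 and 252 at the tip; neither was called (adjusted p = 0.0864 and 0.235). OPS was called lower without cov base array 1 (0.0303) or 2 (0.0357), and SWEET11 higher without base array 2 (0.00854), which was the lower of the base arrays for that gene.

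Auxin response genes were split: 3 were higher (42.9%), 1 lower (14.3%) and 3 not called of 7 tested. Their median log2 difference was 0.77, and all named genes had 20.9% higher and 22.9% lower. HAT2, an auxin-induced homeobox gene, had 612 and 735 at the base, against 74.3 and 77 at the tip, and was 7.8-fold higher at the base (95% limits 6.09 to 10, adjusted p = 2.52e-07). The Aux/IAA genes IAA18 and IAA30, whose products repress auxin responses, were also higher (1.37 ± 0.19 and 1.25 ± 0.28). GH3.9, of the family that conjugates hormones to amino acids, was lower (-1.01 ± 0.26, adjusted p = 0.0074), a call lost without base array 1 (0.0624) or tip array 1 (0.0767). GH3.3, which conjugates auxin, had 171 and 113 at the base, against 89.5 and 65.2 at the tip, and was not called (0.77 ± 0.44, adjusted p = 0.179), but was called higher without cov base array 1 (0.0229) or 2 (0.0257).

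The largest differences toward the tip were larger than those toward the base. AT1G68875 had signals of 1.9 and 0.9 at the base, against 1290.2 and 1642 at the tip, and was 111-fold lower at the base (95% limits 85.7 to 143), with an adjusted p of 8.61e-09. ATA27, a beta-glucosidase gene of the tapetum, the anther layer that feeds developing pollen, had 0.7 and 3.9 at the base, against 1182 and 1501 at the tip, and was 95.6-fold lower at the base (95% limits 72 to 127, adjusted p = 1.02e-08). AT1G66850 had 21.8 and 31 at the base, against 2401 and 3707 at the tip (-6.30 ± 0.21, adjusted p = 1.43e-08). All 3 were bright at the tip, while at the base AT1G68875 and ATA27 were at the bottom of the scale.

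The other 12 of the 15 were loci without a name in RefSeq. AT5G62080 had 2.5 and 17.4 at the base, against 1227 and 1342 at the tip, AT2G20870 had 24.5 and 30.6 at the base, against 1888 and 2935 at the tip, and AT5G07230 had 9.9 and 2.3 at the base, against 769.7 and 1077 at the tip. Their log2 differences were -5.98 ± 0.28, -5.91 ± 0.21 and -5.72 ± 0.23. AT1G29670, AT2G03740, AT2G03850 and AT5G22430 followed with -5.50 ± 0.33, -5.46 ± 0.17, -5.38 ± 0.16 and -5.20 ± 0.28. AT5G33370, AT3G52130, AT3G28830, AT5G62210 and AT4G37900 had -5.20 ± 0.43, -5.19 ± 0.18, -5.19 ± 0.31, -5.11 ± 0.26 and -5.11 ± 0.19. Both base arrays lay below both tip arrays for each of the 15, which were chosen by size.

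Markers of floral buds and anthers include ATA27, already named among the 15 genes chosen by size. Of 5 tested, ATA27 among them, 4 were lower at the base and 1 was not called, with a median of -1.74. Their summed signal was 141 and 173 on the base arrays, against 1889 and 2244 on the tip arrays. Of the tip sums, ATA27 alone made up 1182 and 1501. SWEET8, a sugar transporter of the tapetum, had 29.2 and 44.5 at the base, against 467 and 468 at the tip (-3.32 ± 0.19). EMS1, the receptor kinase that specifies the tapetum, had 27.9 and 30.4 at the base, against 113 and 137 at the tip (-1.73 ± 0.19), and AMS, a transcription factor of the tapetum, had 13 and 2.5 at the base, against 59.8 and 44 at the tip (-1.74 ± 0.32). SPT, a regulator of carpel growth, had 70.6 and 92.1 at the base, against 67.2 and 93.9 at the tip, with overlapping groups. The part of flower tissue in the differences between base and tip was not tested.

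A wider list of pollen and anther genes holds 4 of these markers; in it 1 was higher, 6 lower and 6 not called of 13 tested, with a median log2 difference of 0.08. SHT, which makes spermidine conjugates of the pollen coat, had 4 and 12.7 at the base, against 250.4 and 294 at the tip (-3.84 ± 0.25, adjusted p = 7.96e-07). The higher gene, the tubulin gene TUA1, had 152 and 153 at the base, against 115 and 101 at the tip (0.45 ± 0.15), and its call was lost without base array 1 (0.078), base array 2 (0.0835), tip array 2 (0.13) or a cov tip array (0.0579 and 0.0579). Without tip array 1 the number higher was 2, since SETH3, chosen after its values were seen, was also called (0.0236). The tetraspanin gene TET11 was lower (-0.83 ± 0.25), but not without base array 1 (0.133) or tip array 2 (0.11).

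Of 16 tested regulators of floral organs and meristems, 0 were higher, 4 lower (25%) and 12 not called, with a median log2 difference of -0.08. At an unadjusted p under 0.05 by limma, 0 were higher. The share lower was near the 22.9% of all named genes, of which 20.9% were higher. ULT1, a regulator of meristem size, had 20.9 and 31.5 at the base, against 82.4 and 96.2 at the tip (-1.42 ± 0.20), and ALC, a factor of fruit opening, had 29.6 and 44.6 at the base, against 99 and 141 at the tip (-1.43 ± 0.22). YAB3, which patterns lateral organs, was lower as well (-1.48 ± 0.29), and so was INO, a gene of the ovule (-1.03 ± 0.27), whose call was lost without base array 2 (0.0669) or tip array 2 (0.0758). Without base array 1, LAS and YAB5 were called higher at the base, with log2 differences of 0.66 and 1.03, against 0.39 and 0.42 with all arrays.

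Genes of the epidermis and cuticle included 2 of 3 tested that were lower at the base. The summed signal of the 3 was 309.9 and 251 on the base arrays, against 1121 and 677 on the tip arrays. FATB, which was not called, alone made up 304 and 240.3 of the base sums, and 621 and 238 of the tip sums. WSD1, a wax ester synthase, had 0.4 and 1.3 at the base, against 387 and 313 at the tip, and was 28.4-fold lower at the base (95% limits 21.4 to 37.6, adjusted p = 2.97e-08). SHN3, a transcription factor of cutin and wax genes, had 5.5 and 8.9 at the base, against 113 and 127 at the tip (-2.79 ± 0.23, adjusted p = 4.09e-06). FATB, a fatty acyl thioesterase, had 304 and 240.3 at the base, against 621 and 238 at the tip, and the single high value was that of tip array 1; it was not called (adjusted p = 0.251), but was lower without tip array 2 (0.00121). STOMAGEN, a peptide that promotes stomata, had 3 and 1.3 at the base, against 123 and 115 at the tip (-3.23 ± 0.30, adjusted p = 8.51e-06). FMA, a transcription factor of guard cells and myrosin cells, had 45.4 and 40 at the base, against 67.4 and 55 at the tip, and was not called (adjusted p = 0.131).

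Among cell division genes more were lower than higher at the base. For mitosis and cytokinesis 2 were higher, 10 lower and 8 not called of 20 tested, with a median log2 difference of -0.62. For DNA replication and core histones 2 were higher, 10 lower and 4 not called of 16 tested, with a median log2 difference of -0.90. Of 12 markers of dividing cells, all drawn from these lists, 10 were lower and 0 higher by limma (0 at an unadjusted p under 0.05). Their summed signal was 566 and 613 on the base arrays, against 1846 and 1672 on the tip arrays.

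HTB1, a histone H2B gene, had 55.4 and 73.8 at the base, against 337 and 364 at the tip, and was 4.77-fold lower at the base (95% limits 3.43 to 6.62, adjusted p = 1.06e-05). HTB2, HTB4 and HTB11, of the same histone family, were lower by log2 differences of -1.68 ± 0.19, -1.19 ± 0.19 and -1.52 ± 0.24. Histone genes are close copies that can share probes, so their separate values are uncertain. The histone chaperone gene ASF1B had 5.5 and 11.9 at the base, against 68.8 and 57 at the tip (-1.88 ± 0.29, adjusted p = 0.000361).

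AUR1, an Aurora kinase of the spindle, had 50.9 and 68.3 at the base, against 180 and 196 at the tip (-1.49 ± 0.19, adjusted p = 7.41e-05). 3xHMG-box2, a protein of mitotic chromosomes, had 39.8 and 33.9 at the base, against 320.1 and 272 at the tip (-2.66 ± 0.17, adjusted p = 6.09e-07), and TOPII, the topoisomerase that untangles chromosomes, had 11.8 and 5.4 at the base, against 116 and 63.6 at the tip (-2.28 ± 0.31, adjusted p = 0.000128). For all 3 the base arrays lay well below the tip arrays. UBC20, a ubiquitin-conjugating enzyme of the cell cycle, and TSO1, a regulator of cytokinesis in flowers, were lower as well (-1.28 ± 0.17 and -1.26 ± 0.20).

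The members of the division lists that were higher at the base numbered 4. SKP2A, an F-box protein that targets cell cycle factors, had 193 and 193 at the base, against 83.8 and 68.9 at the tip (1.22 ± 0.17, adjusted p = 0.000197). SIM, an inhibitor of cyclin-dependent kinases, had 389 and 307 at the base, against 210.2 and 153 at the tip (0.90 ± 0.22, adjusted p = 0.00656). ATMAP65-6, a microtubule-associated protein, had 745 and 502 at the base, against 196 and 182 at the tip (1.63 ± 0.18), and KEU, which regulates membrane fusion at the cell plate, had 312 and 318 at the base, against 161 and 153 at the tip (0.95 ± 0.15). The last of the 4 and SIM were chosen after their values were seen. The call of SIM was lost without base array 1 (log2 difference 0.74) or tip array 2 (0.69), which left SKP2A as the only higher gene of the DNA replication list.

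Of 15 tested expansins, which loosen growing walls, 1 was higher (6.67%), 5 lower (33.3%) and 9 not called, with a median log2 difference of -0.52. Over all named genes 20.9% were higher and 22.9% lower. The expansin-like gene EXLA2 had 4.4 and 2.8 at the base, against 102 and 82.3 at the tip (-2.74 ± 0.22, adjusted p = 2.97e-06), and EXPA8 had 13.7 and 6.2 at the base, against 199 and 175 at the tip (-3.21 ± 0.55, adjusted p = 0.000662). EXPA4 was the higher member, with 357 and 689.6 at the base, against 180.4 and 156 at the tip, and was 2.83-fold higher at the base (95% limits 1.92 to 4.16, adjusted p = 0.000609). Without tip array 2 the number higher was 2. EXPB1, also a pollen marker, was lower (-0.87 ± 0.30), but not without base array 1 (0.251) or tip array 2 (0.189).

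Xyloglucan is the main hemicellulose of growing walls. Among its genes 1 was higher (9.09%), 3 lower (27.3%) and 7 not called of 11 tested, with a median log2 difference of -0.29. All named genes had 20.9% higher and 22.9% lower. XTH16, a transglucosylase that cuts and rejoins xyloglucan, had 9.7 and 17.7 at the base, against 312 and 223 at the tip, and was 10.9-fold lower at the base (95% limits 7.89 to 15.1, adjusted p = 5.42e-07). EXGT-A3, another transglucosylase, had 329 and 222 at the base, against 79.2 and 54.5 at the tip (1.86 ± 0.24, adjusted p = 9.25e-05), the opposite direction. ATCSLC08 and CSLC5, of the family that makes the glucan backbone, were lower (-1.60 ± 0.16 and -0.91 ± 0.19), and CSLC12 joined them without base array 2 (0.0252).

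GH9 endoglucanases, enzymes that act on cellulose, were split: 2 were higher (22.2%), 4 lower (44.4%) and 3 not called of 9 tested. Their median log2 difference was 0.02, and all named genes had 20.9% higher and 22.9% lower. GH9B5 had 469.5 and 436 at the base, against 42.2 and 50 at the tip (3.01 ± 0.17, adjusted p = 3.34e-07). GH9B13 had 65.6 and 99 at the base, against 744 and 854 at the tip (-3.13 ± 0.21, adjusted p = 9.42e-07), so these relatives differed by similar amounts in opposite directions. The other higher gene, GH9B7 (0.51 ± 0.16), lost its call without base array 1 (0.134) or tip array 1 (0.105), and the lower gene GH9B18 (-0.75 ± 0.21) without base array 1 (0.0639) or tip array 2 (0.0859).

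Of 30 tested microtubule and actin genes, 9 were higher, 9 lower (30% each) and 12 not called, with a median log2 difference of 0.05. All named genes had 20.9% higher and 22.9% lower. The tubulin gene TUB1 had 58.3 and 51.7 at the base, against 306 and 234 at the tip, TUB7 had 175 and 176 at the base, against 489 and 779 at the tip, and the actin gene ACT11 had 58.8 and 109 at the base, against 363 and 390.1 at the tip. These were lower at the base (-2.07 ± 0.25, -1.75 ± 0.20 and -2.07 ± 0.26), with tip arrays well above base arrays. SP1L5, of a family that organises cortical microtubules, was higher beside AT3G23090 and ATMAP65-6, with 291 and 218 at the base, against 87.7 and 95.4 at the tip (1.35 ± 0.20, adjusted p = 0.000237). The number higher was 5 without base array 1, and the number lower was 5 without base array 2 and 5 without tip array 1.

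Among photosynthesis genes of the nucleus more were lower than higher at the base, while among genes of the chloroplast genome more were higher than lower. For nuclear genes of photosynthesis and chlorophyll 3 were higher, 21 lower and 16 not called of 40 tested, with a median log2 difference of -0.56. For the chloroplast genome 32 were higher, 8 lower and 29 not called of 69 tested, with a median log2 difference of 0.52. The number lower there was 5 without base array 2. The difference between the sets was not tested.

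Within the chloroplast genome, of 45 photosynthesis genes 29 were higher and 0 lower by limma (0 at an unadjusted p under 0.05), with a median of 0.86. Of 14 genes of ribosomal proteins and the plastid RNA polymerase, 0 were higher (0 at an unadjusted p under 0.05) and 6 lower, with a median of -0.40. This split by role was made after the first values had been seen. By complex, 12 of 15 genes of photosystem II were higher, 2 of 5 of photosystem I, 4 of 6 of the cytochrome complex between them, 4 of 6 of ATP synthase and 5 of 10 of the NDH complex. Their median log2 differences were 1.03, 0.52, 0.99, 1.24 and 0.70.

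**Figure D4:**
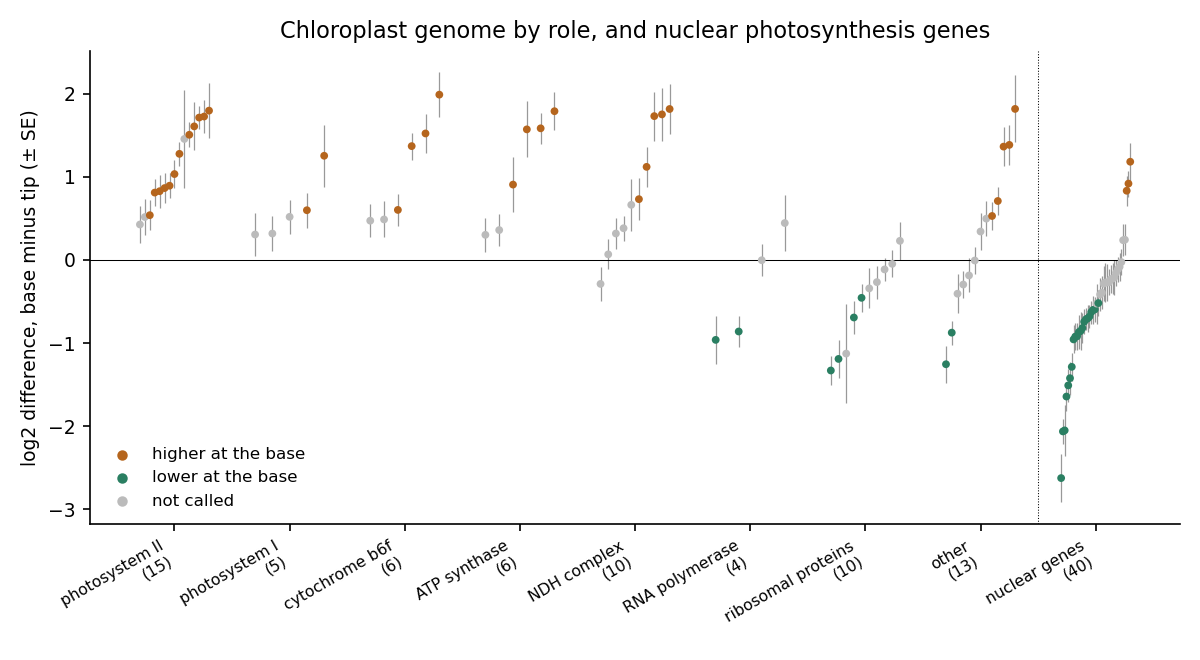
Log2 difference, wild type base minus tip, with its standard error, for genes of the chloroplast genome grouped by role and, right of the dotted line, 40 nuclear genes of photosynthesis and chlorophyll. Brown points were higher at the base, green lower and grey not called; photosystem II genes have a median of 1.03 and ribosomal protein genes of -0.40.

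psbE, a subunit of cytochrome b559 in photosystem II, had 2347 and 2379 at the base, against 667 and 761 at the tip, and was 3.28-fold higher at the base (95% limits 2.65 to 4.05, adjusted p = 3.39e-06). atpA, the alpha subunit of ATP synthase, had 3247 and 2410.1 at the base, against 944 and 907 at the tip (1.58 ± 0.19, adjusted p = 4.95e-05). psbK, a small subunit of photosystem II, had 1318 and 1261 at the base, against 354 and 411 at the tip (1.73 ± 0.20, adjusted p = 5.06e-05). In these the base arrays were far above the tip arrays, and psbI, psbF and petN were higher too (1.51 ± 0.15, 1.28 ± 0.15 and 1.37 ± 0.16). The summed signal of the photosynthesis genes was 72157 and 63080.4 on the base arrays, against 35010.3 and 45878 on the tip arrays.

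In the other direction the ribosomal protein gene rpl22 had 256 and 314 at the base, against 849 and 629 at the tip (-1.33 ± 0.18, adjusted p = 0.00013). rpoA, a subunit of the plastid RNA polymerase, had 309.5 and 232 at the base, against 574 and 429 at the tip (-0.86 ± 0.18, adjusted p = 0.00272). Without base array 2 or tip array 1, 3 genes of this group were lower in place of 6, the lost calls being those of rps18, rpoC2 and rps2. Without tip array 1, 1 chloroplast photosynthesis gene was lower.

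Tetrapyrrole and chlorophyll synthesis held the nuclear decreases of smallest p. HEME1, a uroporphyrinogen decarboxylase, had 81.6 and 80.2 at the base, against 403 and 350.2 at the tip (-2.06 ± 0.15, adjusted p = 1.48e-06), and HEME2, of the same activity, had 169.6 and 123 at the base, against 517 and 440.2 at the tip (-1.64 ± 0.18, adjusted p = 2.91e-05). CHLI2, a subunit of magnesium chelatase, had 13.7 and 3 at the base, against 134 and 87.1 at the tip, and was 6.17-fold lower at the base (95% limits 3.95 to 9.64, adjusted p = 3.23e-05). LHCB4.3, a light-harvesting protein gene, had 165 and 260 at the base, against 889 and 904 at the tip (-2.05 ± 0.31, adjusted p = 0.000276), with base arrays far below tip arrays. The summed signal of 14 markers of green tissue, all in this list, was 16851 and 16521 on the base arrays, against 20091 and 22880.2 on the tip arrays.

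The 3 nuclear members that were higher were PGRL1B, PIFI and NdhS. PGRL1B, of a family that serves cyclic electron flow, had 258 and 236 at the base, against 123 and 127 at the tip (0.92 ± 0.16). PIFI had 1772 and 1443 at the base, against 614 and 794 at the tip (1.18 ± 0.23), and NdhS, a subunit of the NDH complex, had 489 and 385 at the base, against 249 and 228 at the tip (0.83 ± 0.18); these last genes were chosen after their values were seen.

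Of 12 tested genes of the mitochondrial genome, 3 were higher (25%), 0 lower and 9 not called, with a median log2 difference of 0.34. None was lower (0) at an unadjusted p under 0.05 by limma. The share higher was near the 20.9% of all named genes, of which 22.9% were lower. The respiratory complex genes nad6, cox1 and nad5 were higher, with 0.91 ± 0.21, 0.95 ± 0.24 and 0.57 ± 0.20. Without tip array 2 only nad6 of these was called. The call of cox1 was also lost without base array 1 (0.0715), and that of nad5 without base array 2 (0.208), tip array 1 (0.136) or a cov tip array (0.0561 and 0.0549). Without tip array 1, ccb382 was called lower (0.0225), and without base array 2, nad4 was called higher (0.0017).

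Autophagy genes, which deliver cell contents to the vacuole, were mostly higher at the base: 10 were higher, 0 lower and 1 not called of 11 tested, with a median log2 difference of 0.97, and 0 were lower at an unadjusted p under 0.05 by limma. ATG8F, a ubiquitin-like protein of the autophagosome, had 1791 and 1403 at the base, against 553 and 627 at the tip, and was 2.66-fold higher at the base (95% limits 2.09 to 3.39, adjusted p = 3.47e-05). Its relatives APG8H, ATG8C, ATG8D and ATG8E had log2 differences of 1.39 ± 0.17, 1.12 ± 0.18, 0.97 ± 0.16 and 1.07 ± 0.20. ATG3, the enzyme that couples ATG8 to lipid, had 288 and 251 at the base, against 137 and 171 at the tip (0.77 ± 0.16, adjusted p = 0.00241). The member not called was ATG8B, chosen after its values were seen, with 117 and 102 at the base, against 145 and 114 at the tip (-0.21 ± 0.18).

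ESCRT genes, which sort membrane proteins toward the vacuole, were mostly higher: 8 were higher, 1 lower and 3 not called of 12 tested, with a median log2 difference of 0.60. VPS46.2 had 810.1 and 733 at the base, against 320.3 and 405 at the tip (1.07 ± 0.16, adjusted p = 0.000317). VPS2.1, VPS60.1 and VPS60.2 followed with 0.86 ± 0.17, 0.78 ± 0.17 and 1.01 ± 0.22. VPS2.2 was the lower member, with 12.5 and 23.1 at the base, against 87 and 109.7 at the tip (-1.91 ± 0.25, adjusted p = 0.000105). Without base array 1 the number higher was 4.

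GAMMA-VPE, a vacuolar processing enzyme of vegetative tissue, had 3387 and 2778 at the base, against 261 and 312 at the tip, and was 10.4-fold higher at the base (95% limits 8.05 to 13.4, adjusted p = 1.25e-07). It was the single higher member of a list of vacuolar proteolysis in which 1 was higher, 1 lower and 4 not called of 6 tested, with a median log2 difference of -0.19. The lower one, AT4G36880, a cysteine proteinase gene (-1.02 ± 0.33), lost its call without base array 1 (0.126) or tip array 2 (0.183). The subtilase gene ARA12 was called lower without tip array 2 (0.0261).

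Markers of senescing tissue were split: 2 were higher (40%), 1 lower (20%) and 2 not called of 5 tested. Their median log2 difference was 0.35, and all named genes had 20.9% higher and 22.9% lower. WRKY53, a transcription factor of leaf senescence, had 268 and 274 at the base, against 16.5 and 22.5 at the tip (3.18 ± 0.51, adjusted p = 0.000437). WRKY6, another such factor, had 44 and 121 at the base, against 5.1 and 2.8 at the tip (2.45 ± 0.39, adjusted p = 0.000415), with the base arrays far from each other but both above the tip. NOL, a chlorophyll b reductase gene, was lower (-0.58 ± 0.19), but not without base array 1 (0.139) or tip array 2 (0.167). The list held 6 WRKY genes, not the whole family, and of 5 tested 4 were higher. Of these, WRKY20 and WRKY47 lost their calls without base array 2 or tip array 1. Their log2 differences were 0.56 and 0.79 without base array 2, and 0.47 and 0.85 without tip array 1.

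Glucosinolates are the sulphur-based defence compounds of this plant family; among genes of glucosinolates and myrosin cells 4 were higher, 0 lower and 4 not called of 8 tested, with a median log2 difference of 0.37, and 0 were lower at an unadjusted p under 0.05 by limma. Beside BCAT4, AOP3, which modifies the side chain, had 848 and 684 at the base, against 240 and 230.2 at the tip (1.65 ± 0.15, adjusted p = 9.11e-06). UGT74B1, which adds the glucose, had 314 and 236 at the base, against 157 and 91.4 at the tip (1.11 ± 0.24, adjusted p = 0.00286). GSTU20 (0.46 ± 0.16) lost its call without base array 1 (0.054), base array 2 (0.179), tip array 1 (0.21) or a cov tip array (0.0525 and 0.0524).

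All 5 tested genes of cold and dehydration were called, 2 higher and 3 lower. COR15A, a cold-induced chloroplast protein, had 1.9 and 2.7 at the base, against 287 and 374 at the tip, and was 24-fold lower at the base (95% limits 18 to 32.1, adjusted p = 4.45e-08). COR15B, its relative, had 48.5 and 49.3 at the base, against 616 and 735 at the tip, and was 11.3-fold lower at the base (95% limits 8.73 to 14.5). LTI30, a dehydrin, had 1222 and 1138 at the base, against 92.1 and 112 at the tip, and was 10.5-fold higher at the base (95% limits 7.32 to 15.1, adjusted p = 1.24e-06). The dehydrin genes thus went both ways, since COR47 was higher (1.17 ± 0.16) and the gene named dehydrin LEA lower (-3.66 ± 0.34).

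Of 17 tested sugar transporters, 2 were higher (11.8%), 8 lower (47.1%) and 7 not called, with a median log2 difference of -0.91. The shares among all named genes were 20.9% higher and 22.9% lower. SWEET10 had 21.3 and 27.9 at the base, against 233 and 168 at the tip (-2.53 ± 0.21), and SWEET3 had 26 and 31.9 at the base, against 188 and 217 at the tip (-2.39 ± 0.18). SWEET7 was also lower, beside SWEET8 (-2.10 ± 0.28). The higher ones act at the vacuole: SWEET17, a fructose transporter, had 739 and 617 at the base, against 339.9 and 306 at the tip (1.04 ± 0.18, adjusted p = 0.000783), and TMT1, a monosaccharide importer, had 388 and 486 at the base, against 237 and 196 at the tip (0.97 ± 0.17, adjusted p = 0.000699).

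The base to tip gradient in wild type was also set against that in cov, a mutant known for extra vascular tissue between the bundles of its stem. In both genotypes 2112 probe sets were higher at the base and 2264 lower. Calls were opposite for 2 that were higher in wild type and 9 that were lower in wild type. The gradients themselves differed for 342 probe sets (2.15%) by limma, with 166 higher and 176 lower in wild type than in cov. Of the 342, 277 had the same sign in both genotypes and a larger gradient in wild type, 12 the same sign and a larger gradient in cov, and 53 opposite signs. The number moved with single arrays: it was 142 and 212 without wild type base array 1 or 2, 164 and 198 without wild type tip array 1 or 2, 465 and 204 without cov base array 1 or 2, and 145 and 111 without cov tip array 1 or 2.

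**Figure D5:**
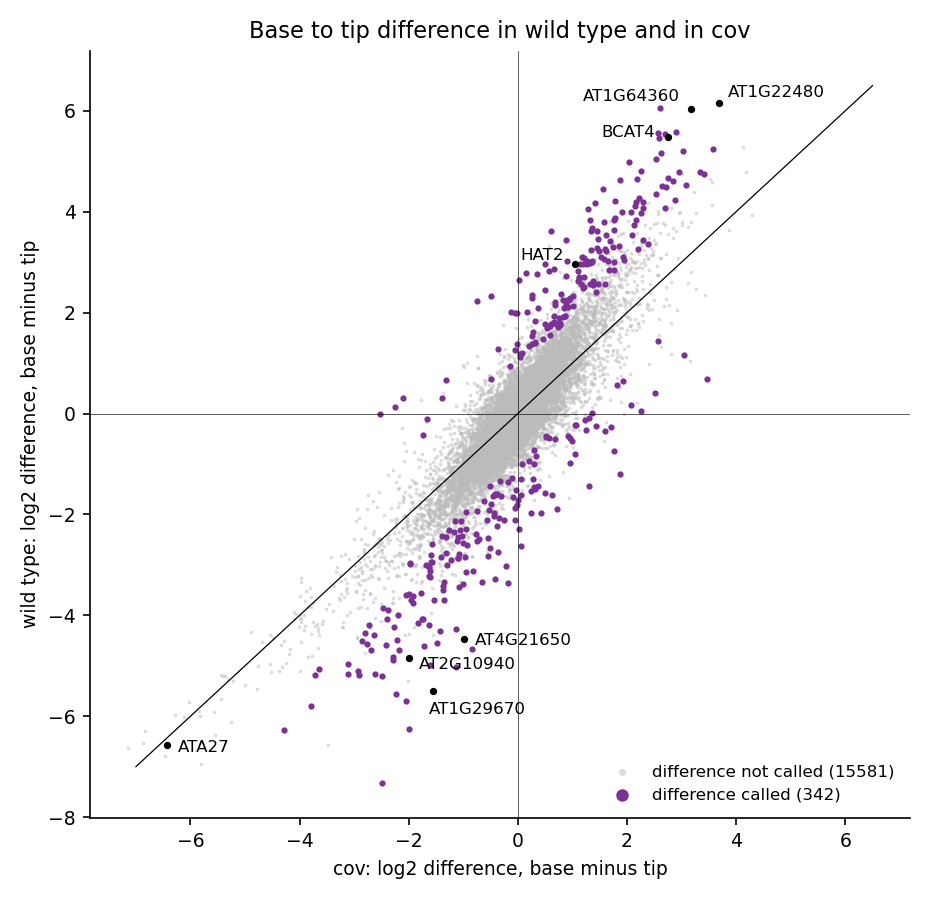
Log2 difference, base minus tip, in wild type (vertical axis) against that in cov (horizontal axis) for 15923 tested probe sets, with the line of equal values. Purple points are the 342 probe sets whose gradients were called different, grey points the others, and black points named genes of either kind; AT1G64360 has 6.04 ± 0.28 in wild type and 3.17 ± 0.28 in cov, while ATA27 has -6.58 ± 0.19 in wild type and -6.43 ± 0.19 in cov.

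AT1G80170 had a log2 gradient of 5.46 ± 0.23 in wild type and 2.59 ± 0.23 in cov, a difference of 2.87 ± 0.32 (adjusted p = 0.00178). In cov its signals were 368 and 355 at the base, against 39.3 and 62.9 at the tip. Its tip signals were low in both genotypes, and its wild type base signals stood above those of cov. AT1G64360 differed by 2.86 ± 0.39 (adjusted p = 0.00531), with 157 and 86.7 at the base, against 2.8 and 2.1 at the tip, in cov. AT3G53980 had 1028 and 1246 at the base, against 37.3 and 70.4 at the tip, in wild type, and 732 and 648 at the base, against 225 and 278 at the tip, in cov, a difference of 2.75 ± 0.32 (adjusted p = 0.0022).

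AT3G48640 and AT5G52760 had the largest differences toward a higher gradient in wild type, 2.95 ± 0.62 and 2.89 ± 0.51 (adjusted p = 0.0386 and 0.0178). These calls were lost when single arrays were left out. For AT3G48640 the adjusted p was 0.161 without wild type base array 1, 0.0751 without base array 2 and 0.0915 without tip array 2. For the same gene it was 0.0935 without cov base array 2, and 0.0957 or 0.156 without cov tip array 1 or 2. For AT5G52760 it was 0.0905 and 0.0611 without wild type base array 1 or 2, 0.0715 and 0.0657 without wild type tip array 1 or 2, and 0.0515 and 0.0789 without cov tip array 1 or 2.

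Among genes with a steeper gradient toward the tip in wild type, AT1G29670 had -5.50 ± 0.33 in wild type and -1.55 ± 0.33 in cov (difference -3.96 ± 0.47, adjusted p = 0.0022). In cov its signals were 101 and 279 at the base, against 535 and 504 at the tip, so its base signals were far higher in cov than in wild type. AT4G21650 had 16.5 and 2.7 at the base, against 518 and 372 at the tip, in wild type, and 109 and 107 at the base, against 219.6 and 227 at the tip, in cov (-3.49 ± 0.39, adjusted p = 0.00175). AT5G11420 and AT2G10940 differed in the same direction (-3.13 ± 0.33 and -2.85 ± 0.41, adjusted p = 0.00171 and 0.0067).

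THI2.1, which encodes a thionin, a small antimicrobial protein, had 15.1 and 42 at the base, against 252 and 511 at the tip, in wild type, and 284 and 168 at the base, against 230 and 382 at the tip, in cov. Its gradients differed by -2.86 ± 0.57 (adjusted p = 0.0305), a call lost without wild type base array 1 (0.12), wild type tip array 2 (0.0898), cov base array 1 (0.0569) or cov tip array 1 or 2 (0.109 and 0.0505). HAT2, WSD1, COR15A and COR15B, described above, also had gradients called different, by 1.92 ± 0.23, -2.53 ± 0.26, -2.16 ± 0.27 and -2.11 ± 0.24, each larger in size in wild type. So did 14 of the 15 genes of largest difference toward the base, and 2 of the 15 toward the tip. Over all tested probe sets the share was 2.15%. The tested difference includes the wild type gradient by which the 15 were chosen, which favours such calls. The counts of 14 and 2 therefore cannot be compared with that share. Among the 14 were BCAT4 and IRX15, by 2.74 ± 0.22 and 1.46 ± 0.30. Both sets of 15 were chosen by size in wild type, and all of their genes were called in cov with the same sign. The markers of floral buds and anthers had 0 of 5 gradients called different by limma, and ATA27 differed by -0.15 ± 0.26 (adjusted p = 0.847).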

How the data were processed

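RNA of wild type and cov stem bases and tips was measured on 8 ATH1 arrays with 2 arrays per group. The deposited values are linear intensity signals made by the authors with MAS5, per the submitters' processing notes; the version is not given in the sources used here. On every array the 2% trimmed mean is close to 100, 91 values are 0, and detection calls were not used here. From the deposited intensity values log2(signal + 11.85) was computed, the pseudocount being 0.25 of the table median of 47.4. Of 22810 probe sets, 64 controls and 6823 with a mean signal under the 30th percentile (21.4) over all arrays were left out. Of the 15923 tested, 8778 had 1 gene in the platform annotation, 301 several and 6844 none. Symbols were updated through RefSeq TAIR10.1 for 13436 probe sets and kept for 77.

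The 4 groups were fitted together with limma 3.58.1 in R 4.3.3 (lmFit, eBayes with trend, 4 residual degrees of freedom, Benjamini-Hochberg adjustment over all tested probe sets, threshold 0.05). The fit was also run on simulated data, with independent normal noise of the fitted spread and changes added to 200 probe sets. Such noise cannot show how the fit does on the real spread between arrays. The number of arrays limits the precision.

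Named genes were the 15 highest and 15 lowest differences among called probe sets with 1 gene, up to 6 members of smallest p per described list, and the 5 highest and 5 lowest differences between gradients, with the brightest probe set per gene. Of 76 genes with several tested probe sets, 55 had the same call and 0 opposite calls. The members and lists were chosen with earlier results of these data known, and some families and the split of the chloroplast genome by role were added after first values were seen. Genes named outside the rule are marked. Promoter motifs were not analysed here. Alternatives covered the pseudocount, filter, scaling, trend, arrays fitted, a replicate block and leaving out each array.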

Additional observations from a re-analysis of the deposited data

Results flagged for a closer look

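For 10 genes, the 5 highest and 5 lowest among those with 1 gene per probe set, the base to tip difference in wild type was called different from that in cov by the test of the difference itself (limma, adjusted p). Higher in wild type than in cov were the gradients of AT3G48640, by 2.95 on the log2 scale (adjusted p = 0.0386), AT5G52760, by 2.89 (0.0178), AT1G80170, by 2.87 (0.00178), AT1G64360, by 2.86 (0.00531), and AT3G53980, by 2.75 (0.0022). Lower in wild type were those of AT1G29670, with a difference of -3.96 (0.0022), AT4G21650, -3.49 (0.00175), AT5G11420, -3.13 (0.00171), THI2.1, -2.86 (0.0305), and AT2G10940, -2.85 (0.0067). Over 16 alternatives, among them the omission of each array, the calls of AT3G48640, AT5G52760 and THI2.1 were lost in 11, 8 and 7. Those of the other genes were lost in none. The cause of these 10 differences was not tested.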

How the results depend on the processing

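Over 17 alternatives, the counts of 3510 probe sets higher and 3881 lower at the base in wild type stayed within 1.5 times, at 2921 to 3863 and 3082 to 3975, and 0 shared calls changed sign. Median centring gave 3863 higher and 3502 lower. Leaving out cov arrays in these counts was chosen after seeing the data. Of 261 named genes 221 were called, and 184 lost it under no setting that tested them: 167 were tested under all 17, and 17 were left out by the filter at the 50th percentile. That filter, which tests fewer members, moved 13 list counts by over 1.5 times, and each other setting that left out no wild type or single cov array moved 1 to 5. The count of 342 gradients that differ between wild type and cov was less stable. It was 139 without a filter on dim probe sets, 227 by eBayes without trend, and 111 to 465 when single arrays were left out; the cause was not tested. With the replicate number as a block within genotype it was 200, and the block gave 3445 higher and 3771 lower in wild type. The labels do not say that the replicate numbers pair samples. Deviations of base and tip array 1 correlated over probe sets at 0.09 in wild type and -0.04 in cov, which cannot settle whether they pair. Signals near the bottom of the scale, and 2 arrays per group, limit what can be told of dim genes.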

Other observations

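The values of further gene families follow, to be read against 20.9% higher and 22.9% lower over all named genes. The counts of several, such as the beta-glucosidases, lie near these shares, and no family as a whole was tested. The lists hold chosen members and need not cover whole families. Among tetraspanins, membrane organisers, 3 were higher, 4 lower and 3 not called of 10 tested, with a median log2 difference of -0.20. TET3 had 855 and 768 at the base, against 131 and 122 at the tip (2.57 ± 0.15, adjusted p = 3.35e-07 by limma), and TET8 had 1595 and 1580 at the base, against 297 and 361 at the tip (2.24 ± 0.28). The number lower was 2 without base array 1 or tip array 2. Among bZIP transcription factors 4 were higher, 0 lower and 10 not called of 14 tested, with a median log2 difference of 0.27; 1 was lower at an unadjusted p under 0.05. bZIP58 had 134 and 131 at the base, against 19.7 and 17.5 at the tip (2.25 ± 0.20), and BZIP60, a factor of the response to unfolded proteins, had 460.3 and 489 at the base, against 113 and 148 at the tip (1.78 ± 0.29). Without tip array 2, 2 were higher, and without base array 1, 1 was lower, AT1G06070 (adjusted p = 0.0426 by limma). The list of cytochrome P450 genes held 22, not the whole family, and 10 were tested. Of these 6 were higher, 0 lower and 4 not called, with a median log2 difference of 0.71. At an unadjusted p under 0.05 by limma, 0 were lower. Without base array 1, 1 was lower, CYP71B35, chosen after its values were seen (adjusted p = 0.0265). CYP78A9, of a family that promotes organ growth, had 285 and 244 at the base, against 17.5 and 6.2 at the tip (3.58 ± 0.29).

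Among serine carboxypeptidase-like genes 3 were higher, 8 lower and 7 not called of 18 tested, with a median log2 difference of -0.47. The gene scpl25 had 62.7 and 60.2 at the base, against 469 and 416 at the tip (-2.63 ± 0.15), and scpl31 had 382 and 404 at the base, against 96.8 and 64.4 at the tip (2.15 ± 0.27). The TRICHOME BIREFRINGENCE-LIKE family acetylates wall polysaccharides; in it 4 were higher, 4 lower and 5 not called of 13 tested, with a median log2 difference of 0.20. TBL45 had 47.5 and 52.3 at the base, against 372 and 294 at the tip (-2.47 ± 0.18), and TBL36 had 576 and 733 at the base, against 159 and 178 at the tip (1.88 ± 0.17). Among ubiquitin-conjugating enzymes 4 were higher, 1 lower and 6 not called of 11 tested, with a median log2 difference of 0.33, with UBC28 at 1785 and 1374 at the base, against 602 and 559 at the tip (1.41 ± 0.15). Among nuclear RNA polymerase subunits 0 were higher, 7 lower and 3 not called of 10 tested, with a median log2 difference of -0.66; 0 were higher at an unadjusted p under 0.05. The number lower was 4 without base array 1, 3 without base array 2, 2 without tip array 1 and 3 without tip array 2.

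CML41, of the calmodulin-like calcium sensors, had 185 and 255 at the base, against 19.2 and 31.5 at the tip, in wild type, and 91.7 and 52.8 at the base, against 66.9 and 70.6 at the tip, in cov, and its gradients differed by 2.62 ± 0.37 (adjusted p = 0.00624). For aldehyde dehydrogenases, 3 were higher, 1 lower and 4 not called of 8 tested, with a median log2 difference of 0.17; ALDH3F1 had 139 and 164 at the base, against 576 and 663 at the tip (-1.95 ± 0.15). The number higher was 2 in each fit that left out 1 array, since ALDH6B2 (0.38 ± 0.14, adjusted p = 0.047 by limma) lost its call in all of them. For UDP-glycosyltransferases, 5 were higher, 3 lower and 8 not called of 16 tested, with a median log2 difference of 0.21; UGT76C1, which acts on cytokinins, had 51.3 and 54.6 at the base, against 1 and 2.1 at the tip (2.27 ± 0.28). For IQD proteins, which bind calmodulin, 2 were higher, 4 lower and 5 not called of 11 tested, with a median log2 difference of -0.30; IQD28 had 292 and 245 at the base, against 102 and 100 at the tip (1.31 ± 0.16). For beta-glucosidases, 3 were higher, 3 lower and 5 not called of 11 tested, with a median log2 difference of 0.14; BGLU33 had 465 and 489 at the base, against 103 and 77.8 at the tip (2.27 ± 0.19).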
